A study of Mus musculus with 12 samples.

Results

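The high fat diet was compared with the casein diet in abdominal fat pads of wild type mice, through all 6 wild type arrays of a series of 12: 3 pools of fat pads from mice on casein, the control diet, and 3 from mice on the high fat diet. The mice were female C57BL/6 with no targeted allele in either group, put on their diet at postnatal day 28 and kept on it for 13 weeks. The other 6 arrays hold pools from mice null for p47phox (P47KO), 3 on each diet, and enter here in 2 ways: they help to set the residual variance of the test, and their own diet difference is given beside that of the wild type pools. The labels give no number of animals in a pool and do not say which abdominal depot was taken, so the p-values measure the spread between pools. Affymetrix arrays reported 18195 genes, and their small number limits the precision. Values are log2 differences from a probe set's own median over the 12 arrays, so that 1 stands for 2 times the median, and no absolute level can be read. For the same reason the presence of fat in every pool could not be checked from the level of a marker.

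White fat stores triglyceride in adipocytes and releases it as fatty acids through lipolysis. On a diet rich in fat the adipocytes enlarge, secrete more leptin and express genes such as Mest that follow the growth of the depot, while blood vessels, matrix and macrophages are remodelled around them. Fat also takes up cortisol-like steroids and reactivates them locally through the enzyme encoded by Hsd11b1, and its brown and beige cells burn fatty acids through the uncoupling protein Ucp1. A fat pad dissected from the abdomen can carry muscle, lymph node, adrenal gland, ovary and oviduct with it, and an array of pooled tissue reads all of them together. In such bulk samples fewer cells of a type and less RNA per cell cannot be told apart.

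Of the 18195 genes, 0 (0%) passed the threshold of an adjusted p of 0.05 in limma, which was fitted to the 4 group means of all 12 pools. The smallest adjusted p was 0.0746 (Slc16a12). A fit to the 6 wild type pools alone, with 4 residual degrees of freedom, also called 0 genes; its smallest adjusted p was 0.62, its first gene was Pim1, and 1141 genes had an unadjusted p below 0.05, 830 of them shared with the fit of all pools. An unadjusted limma p below 0.05 was found for 1384 genes (7.61%), of which 851 (4.68%) were higher on the high fat diet and 533 (2.93%) lower. In 2172 genes (11.9%) the pools were separated, meaning that all 3 pools of one diet lay above all 3 of the other: 1287 (7.07%) higher on the high fat diet and 885 (4.86%) lower. The median difference over all genes was 0.001. Leaving out casein pool 2 let 15 genes pass, 1 higher and 14 lower; without high fat diet pool 1 there were 2, without high fat diet pool 2 there was 1, and without any 1 of the other pools there were 0. Without high fat diet pool 3 the count with an unadjusted p below 0.05 was 896. An exact permutation test of 3 pools against 3 cannot go below a two-sided p of 0.1.

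The 6 pools did not split cleanly by diet. Over all probe sets, the centred values of casein pool 2 correlated with those of the 3 high fat diet pools at 0.59, 0.40 and 0.49, but with those of casein pools 1 and 3 at -0.24 and 0.16. These correlations describe arrays centred on the same medians and carry no test. Whether casein pool 2 carries the right label could not be settled from these data, and every comparison here takes the labels as given. Markers of other tissues differed from pool to pool, as the plot of marker medians by pool shows. The median of 30 skeletal muscle genes was 2.65, -0.29 and 0.19 in casein pools 1 to 3 and -1.14, 4.61 and -0.75 in high fat diet pools 1 to 3. All 30 were highest in high fat diet pool 2. The median of 25 liver genes was 4.53 in casein pool 3 and 1.26 in high fat diet pool 3, and between -0.95 and -0.08 in the other wild type pools. The median of 31 lymphoid genes was 1.31 in casein pool 3 and between -0.09 and 0.09 elsewhere, and 29 of the 31 were highest in that pool.

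**Figure D1:**
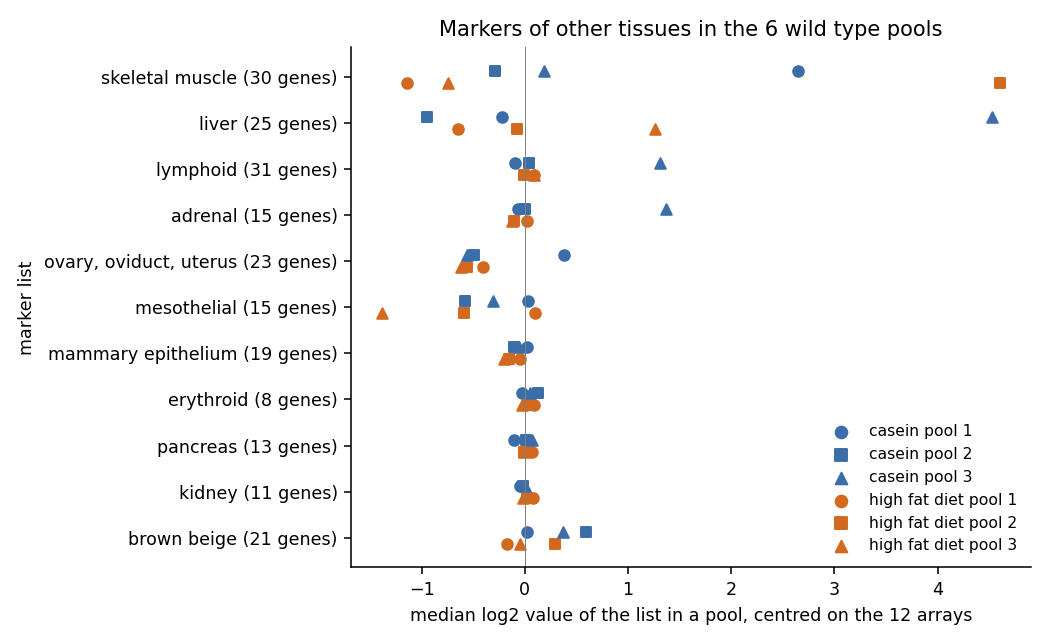
Median centred log2 value (x axis) of the measured genes of 11 marker lists (y axis) in the 3 casein pools (blue) and the 3 high fat diet pools (orange) of wild type mice; each point is 1 pool. Skeletal muscle genes are high in high fat diet pool 2 (4.61) and casein pool 1 (2.65), and liver, lymphoid and adrenal genes are high in casein pool 3 (4.53, 1.31 and 1.37).

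Large differences between the diets often came with 1 casein pool far from the rest. A difference of more than 2-fold was found for 222 genes (1.22%), 34 higher and 188 lower on the high fat diet, but only 53 of the 222 were separated, 19 higher and 34 lower. The wild type pool farthest from the median of the 6 was casein pool 3 for 96 of the 222 and casein pool 1 for 73. In 168 of them casein pool 2 lay nearer to the high fat diet mean than to the mean of the other casein pools. Of the 222, 44 were on a list of markers of another tissue, and 1 of these 44, Fdx1, was separated. Without casein pool 2, 435 genes were over 2-fold. Without casein pool 3, 117 of the 222 were still more than 2-fold different in the same direction, and without casein pool 1, 142 were.

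Several of the largest differences are given by pool, for genes chosen after their values were seen. Hsd3b1, a step in the synthesis of steroid hormones, stood at -0.18, -8.11 and 1.14 in casein pools 1 to 3 and at -6.16, -8.86 and -8.16 in the high fat diet pools. Casein pool 2 was therefore as low as the high fat diet pools, and the difference of -5.34 ± 1.86 (SE, n = 3 pools a diet) had an adjusted p of 0.599 in limma. Cyp11b1, which completes corticosteroid synthesis in the adrenal cortex, was 8.56 in casein pool 3 and between -0.36 and 0.34 in the other 5 wild type pools. Chgb, a granin of chromaffin cells, was 8.17 in the same pool and at most 0.50 elsewhere. Sprr2f, a gene of reproductive epithelium, was 6.93 in casein pool 1 and between -2.22 and -1.87 elsewhere. Ovgp1, the oviduct glycoprotein, was 3.90 in casein pool 1 and between -4.39 and -3.80 elsewhere. For the last 4 genes a single casein pool was far above the other wild type pools, while Hsd3b1 was far lower in casein pool 2 and all 3 high fat diet pools. Arg1, a urea cycle enzyme on the liver list, was 5.14, -0.98 and 4.53 on casein and -0.75, -0.11 and 0.49 on the high fat diet (-3.02 ± 1.27, adjusted p = 0.643). In casein pool 1, where Arg1 was highest, the median of the liver list was -0.22. Without casein pool 2 Hsd3b1 differed by -8.21 (adjusted p = 0.00123). Of the 188 marker genes of 10 other tissues, 2 were separated upward (Cel and Slc5a2) and 5 downward (Fdx1, Nr5a1, Oosp1, Msx1 and Cela3b). Both counts lie below the shares of all genes, 7.07% upward and 4.86% downward. Fdx1, the electron donor of mitochondrial steroid enzymes, was -0.06, -1.48 and -0.07 on casein and -1.78, -1.92 and -2.05 on the high fat diet.

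Among separated genes, the 8 with the smallest p in each direction are described next, and none of the 16 passed the adjusted threshold. Their adjusted p in limma ran from 0.0746 to 0.317, and in the fit to the wild type pools alone it was 0.62 for Slc16a12, 0.773 for Pla2g2e and 0.771 for Hsd11b1. All 16 kept their direction with an unadjusted p below 0.05 in each of the 28 alternative analyses, among them those that left out any 1 pool and those that took the muscle, liver and lymphoid medians as covariates. Because they were named for their p, this describes them and adds no evidence. The 250 bases before the annotated start are shown for the gene with the smallest p, Slc16a12, and for the 2 genes with the largest difference in each direction among the 16, Pla2g2e and Hsd11b1. They are from RefSeq, build GRCm38.p6, 5′ to 3′ along the gene, with capitals marking motif matches: Slc16a12 at chr19:34747329-34747578 (minus strand), Pla2g2e at chr4:138877692-138877941 (plus strand) and Hsd11b1 at chr1:193242361-193242610 (minus strand).
Slc16a12: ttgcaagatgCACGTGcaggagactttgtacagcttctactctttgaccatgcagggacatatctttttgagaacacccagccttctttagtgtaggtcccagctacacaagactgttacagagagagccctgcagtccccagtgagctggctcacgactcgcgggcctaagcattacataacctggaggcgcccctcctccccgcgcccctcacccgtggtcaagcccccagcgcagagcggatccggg
Pla2g2e: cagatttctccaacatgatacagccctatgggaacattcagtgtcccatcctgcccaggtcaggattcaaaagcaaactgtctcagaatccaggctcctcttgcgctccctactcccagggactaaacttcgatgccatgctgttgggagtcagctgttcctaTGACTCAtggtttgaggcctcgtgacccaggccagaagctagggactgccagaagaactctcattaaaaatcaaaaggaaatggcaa
Hsd11b1: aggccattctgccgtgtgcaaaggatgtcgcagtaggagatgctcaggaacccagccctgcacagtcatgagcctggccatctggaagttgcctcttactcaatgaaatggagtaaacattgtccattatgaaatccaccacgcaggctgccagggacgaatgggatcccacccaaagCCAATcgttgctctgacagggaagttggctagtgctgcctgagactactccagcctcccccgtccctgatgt
The motifs searched on both strands were CCAAT (or ATTGG), the AP-1 motif TGANTCA, the E-box CACGTG and the C/EBP motif TTGCGCAA, and no motif's letters lie inside another's. The Slc16a12 window held 1 E-box (at -240), as did 6.02% of 32851 promoter windows of the same length. The Pla2g2e window held 1 AP-1 motif (at -87), as did 6.75% of windows, and the Hsd11b1 window held 1 CCAAT box (at -72), as did 33.8%. The C/EBP motif, in 0.164% of windows, was in none of the 3 windows. A match is a description of the letters, not a site.

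Among the genes higher on the high fat diet, Slc16a12, a monocarboxylate transporter that carries creatine, was 0.24, 0.10 and -0.20 in casein pools 1 to 3 and 0.98, 1.29 and 1.30 in high fat diet pools 1 to 3. The groups lay far apart, and the difference was 1.14 ± 0.13 (SE), or 2.21-fold, with an adjusted p of 0.0746. It passed without casein pool 2 (1.17, adjusted p = 0.0409) and without high fat diet pool 1 (1.25, adjusted p = 0.043). Over the 28 alternatives its adjusted p in limma ran from 0.0409 to 0.649. Pla2g2e, a secreted phospholipase A2 that acts on lipids outside the cell, was -0.08, 0.21 and -0.26 on casein and 2.13, 0.95 and 1.98 on the high fat diet. High fat diet pool 2, the pool rich in muscle markers, had the lowest of the 3 high values. The difference was 1.73 ± 0.27, or 3.31-fold (adjusted p = 0.208), and without that pool it was 2.10 (adjusted p = 0.00976). For Pla2g2e the adjusted p in limma ran from 0.00976 to 0.997 over the alternatives. Pmepa1, a membrane protein that dampens TGF-beta signalling, was -0.55, -0.77 and -0.64 on casein and 0.23, 1.21 and 1.70 on the high fat diet. Its casein pools were tight and its high fat diet pools spread, with a difference of 1.70 ± 0.29 (adjusted p = 0.208). Without high fat diet pool 1 it was 2.11 (adjusted p = 0.00742), and all 3 of its probe sets were separated. Over the alternatives the adjusted p of Pmepa1 in limma ran from 0.00742 to 0.997.

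Folh1, a membrane carboxypeptidase that trims glutamate from folates and peptides, was 0.05, 0.29 and 0.14 on casein and 1.12, 1.31 and 2.20 on the high fat diet, a difference of 1.38 ± 0.24 (adjusted p = 0.234). Mlkl, the pore-forming effector of necroptosis, was -0.18, 0.01 and -0.01 on casein and 0.56, 0.49 and 0.97 on the high fat diet. It differed by 0.73 ± 0.12 (adjusted p = 0.208). The remaining 3 were Apol6, of the apolipoprotein L family (0.90 ± 0.15), Lhfpl2, a tetraspan membrane protein (0.96 ± 0.16), and Rgs7bp, which anchors regulators of G protein signalling at the membrane (0.68 ± 0.12), each with an adjusted p of 0.208. All 4 probe sets of Lhfpl2 and all 3 of Rgs7bp were separated.

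**Figure D2:**
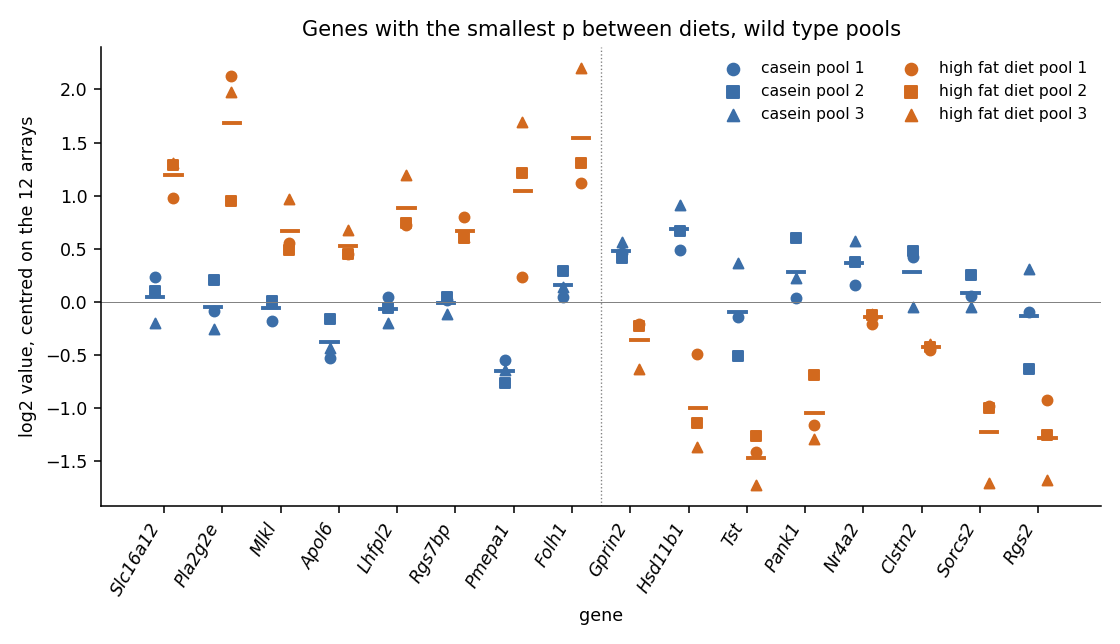
Centred log2 value (y axis) in each wild type pool of the 16 separated genes with the smallest p (x axis), 8 higher and 8 lower on the high fat diet; blue points are casein pools, orange points high fat diet pools, symbols the pool number and bars the group means. The casein and high fat diet pools do not overlap in any of the 16, by the rule that chose them, and Slc16a12 has its casein pools at -0.20 to 0.24 and its high fat diet pools at 0.98 to 1.30.

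Hsd11b1, which regenerates active glucocorticoid inside fat cells, had the largest difference of the 8 genes lower on the high fat diet. It was 0.49, 0.67 and 0.92 in casein pools 1 to 3 and -0.49, -1.14 and -1.37 in the high fat diet pools. The difference was -1.69 ± 0.26, that is 3.22-fold lower (adjusted p = 0.208 in limma), and it lay between -1.94 and -1.50 when each wild type pool was left out in turn. With muscle, liver and lymphoid medians as covariates it was -1.44 (adjusted p = 0.111). Of 19 genes of the glucocorticoid pathway and its targets, 1 was separated upward (Tsc22d3, the leucine zipper protein GILZ, 0.35 ± 0.13, adjusted p = 0.621) and only Hsd11b1 downward. The list had a median of 0.10.

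Tst, the mitochondrial sulfurtransferase rhodanese that detoxifies cyanide and sulfide, was -0.14, -0.50 and 0.37 on casein and -1.41, -1.26 and -1.73 on the high fat diet, a difference of -1.37 ± 0.22 (adjusted p = 0.208). Without casein pool 2 it was -1.58 (adjusted p = 0.0468), and over the alternatives its adjusted p in limma ran from 0.0468 to 0.997. Pank1, a pantothenate kinase at the first step of coenzyme A synthesis, was 0.04, 0.60 and 0.22 on casein and -1.15, -0.69 and -1.29 on the high fat diet. It differed by -1.33 ± 0.22 (adjusted p = 0.208), and all 4 of its probe sets were separated. Rgs2, which shortens signalling through Gq-coupled receptors, was -0.09, -0.63 and 0.31 on casein and -0.92, -1.25 and -1.67 on the high fat diet (-1.15 ± 0.23, adjusted p = 0.317). The other lower genes were Sorcs2, a sorting receptor (-1.31 ± 0.26, adjusted p = 0.315), Gprin2, a G protein partner (-0.83 ± 0.13, adjusted p = 0.208), Clstn2, a calsyntenin (-0.71 ± 0.14, adjusted p = 0.296), and Nr4a2, an orphan nuclear receptor (-0.52 ± 0.10, adjusted p = 0.296). Of the 6 probe sets of Nr4a2, 4 were separated.

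The counts of separated genes in the lists that follow stand against 7.07% separated upward and 4.86% downward among all genes. Their counts with an unadjusted p below 0.05 stand against 4.68% of all genes higher and 2.93% lower. The lists, that of fat mass among them, were chosen with earlier results of these data known. Their shares and counts therefore describe them and are no independent test. The upward share was 46.7% for the fat mass list, 26.3% for complement, 23.1% for endothelial genes, 20.7% for insulin and glucose genes, 20.6% for chemokines and cytokines and 20% for adipokines. It was 8.7% for mature adipocyte markers, 11.4% for macrophage genes and 11.8% for matrix genes. Matrix proteases had 10%, lipogenic enzymes 10.5%, cholesterol synthesis 11.1% and interferon-stimulated genes 11.5%. Fatty acid uptake and esterification had 12.5%, progenitor markers 13%, lipid-associated macrophage genes 13.6% and lipid droplet genes 14.3%. These shares lie near that of all genes or rest on few genes, so their counts are not a result about their lists.

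Genes that follow fat mass were higher by value on the high fat diet, although none passed the threshold. All 15 measured of the 16 in the list had a positive difference, 7 were separated and 4 (Mest, Cavin3, Ehd2 and Peg3) had an unadjusted p below 0.05. The list's median difference was 0.46, against 0.001 over all genes. Mest, an imprinted gene whose level follows the enlargement of adipocytes, was 0.04, 0.22 and 0.43 on casein and 1.31, 1.17 and 2.90 on the high fat diet. It differed by 1.56 ± 0.46 (adjusted p = 0.538), with high fat diet pool 3 far above the others. Lep, which encodes leptin, was 0.13, 0.60 and 0.32 on casein and 0.71, 0.51 and 1.71 on the high fat diet. The groups overlapped, since high fat diet pool 2 lay below casein pool 2, and the difference was 0.63 ± 0.28 (adjusted p = 0.654). Without high fat diet pool 3 it was 0.26, while that of Mest was 1.01.

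Sfrp5, a secreted Wnt inhibitor, was -0.04, 0.20 and 0.06 on casein and -0.33, 1.20 and 2.37 on the high fat diet, so that only 2 high fat diet pools were high (1.01 ± 0.53, adjusted p = 0.692, and 0.36 without high fat diet pool 3). Npr3, the clearance receptor for natriuretic peptides, was separated with a difference of 0.59 ± 0.36 (adjusted p = 0.721). Cavin3 (0.60 ± 0.21, adjusted p = 0.599), a coat protein of the caveolae that fill the adipocyte surface, was separated as well. The heat map of these genes shows the step between diets as largest in high fat diet pool 3. Without that pool the list's median was 0.26, and over the other wild type pools left out in turn it lay between 0.40 and 0.54.

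**Figure D3:**
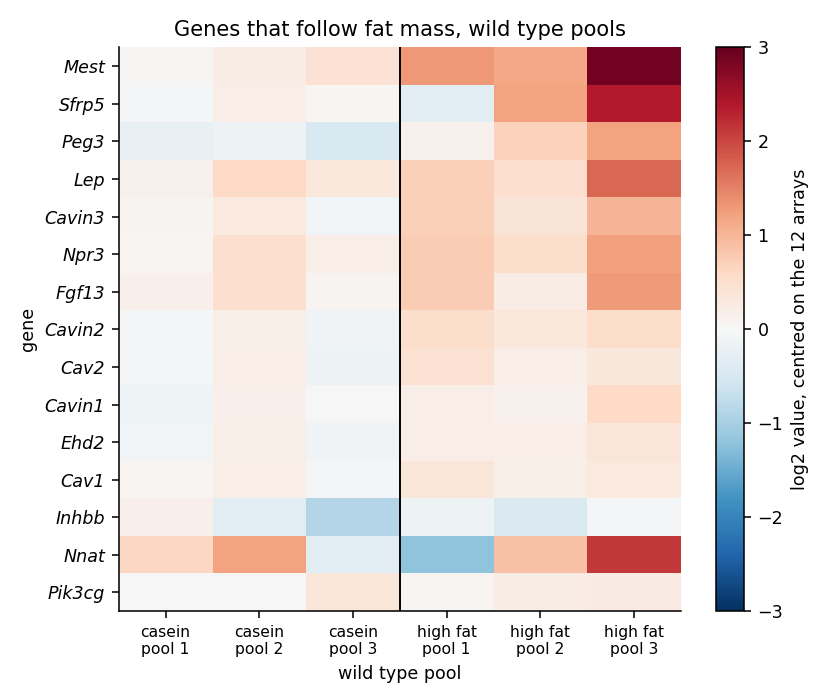
Centred log2 value (colour scale, cut at -3 and 3) of the 15 measured genes that follow fat mass (rows, in order of the diet difference) in the 3 casein and 3 high fat diet pools of wild type mice (columns). Mest at the top runs from 0.04 to 0.43 on casein and from 1.17 to 2.90 on the high fat diet, and high fat diet pool 3 holds the highest value for most genes.

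Among the hormones of fat, Rarres2, which encodes chemerin, was -0.08, -0.07 and -0.10 on casein and 0.46, 0.67 and 0.84 on the high fat diet, a difference of 0.74 ± 0.15 with an adjusted p of 0.315. Its casein pools differed by very little and its high fat diet pools were all higher. Itih5, a hyaluronan-binding protein made by adipocytes, differed by 0.59 ± 0.18 (adjusted p = 0.549). Adipoq, the adiponectin gene, differed by 0.08 ± 0.18 (adjusted p = 0.92), with its pools between -0.20 and 0.09. Of 15 adipokine genes 3 were separated, all upward (Rarres2, Itih5 and Ccdc80), and the median was 0.08 (0.28 without casein pool 2 and 0.03 without casein pool 3).

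Lists of the adipocyte's own machinery had small positive medians, between 0.08 and 0.14, beside 0.001 over all genes. The 23 mature adipocyte markers had a median difference of 0.08, with 2 separated upward (Cidec and Cd36) and 0 downward. Plin4, a lipid droplet coat protein, differed by 0.70 ± 0.31 (adjusted p = 0.652). Of 21 genes of the lipid droplet and lipolysis 3 were separated, all upward: Cidec, Npr3 and Hilpda, an inhibitor of triglyceride lipase, at 0.51 ± 0.19 (adjusted p = 0.623). Fatty acid uptake and esterification genes had a median of 0.14 with 3 of 24 separated upward (Cd36, Acsl3 and Gpat3). Acsl5, which activates fatty acids, was lower by value (-0.69 ± 0.23) and Acsl3 higher (0.35 ± 0.14), with adjusted p of 0.599 and 0.639. The medians of these lists lay between 0.01 and 0.22 without each wild type pool in turn. Cholesterol synthesis had a median of 0.09, and of -0.09 without high fat diet pool 1. Hmgcs1, its early synthase, was -0.11, -0.33 and -0.28 on casein and 0.33, 0.28 and 0.57 on the high fat diet, a difference of 0.64 ± 0.20 (adjusted p = 0.566).

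Lipogenic enzymes pointed in both directions. The 19 genes had a median of -0.32, with 13 negative, but 2 were separated upward (Scd1 and Scd2) and 1 downward (Elovl5). Fasn, the fatty acid synthase, was 0.01, 0.32 and 0.17 on casein and 0.20, -0.01 and -0.67 on the high fat diet, so that its difference of -0.33 ± 0.22 (adjusted p = 0.738) came mainly from high fat diet pool 3. Without that pool it was -0.07, and the list's median was -0.08. Scd2, a stearoyl-CoA desaturase, was -0.51, -0.23 and 0.07 on casein and 1.01, 0.27 and 0.34 on the high fat diet (0.76 ± 0.23, adjusted p = 0.539). Scd1, its main counterpart in fat, differed by 0.16 ± 0.11 (adjusted p = 0.747).

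Genes of fat oxidation and thermogenesis were also mostly lower by value. Of 40 respiratory chain and citric acid cycle genes 37 had a negative difference, with a median of -0.15, yet 0 were separated. That median was -0.05 without casein pool 2, -0.07 without high fat diet pool 3 and -0.26 without casein pool 1. Of 23 genes of fatty acid oxidation 19 were negative, with a median of -0.16 and 0 separated. Without casein pool 2 it was -0.0016, and without casein pool 1 it was -0.34. Ppara, the nuclear receptor that drives this pathway, was -0.12, 1.30 and 1.25 on casein and -0.61, 0.36 and -0.37 on the high fat diet (-1.01 ± 0.40, adjusted p = 0.639). Casein pools 2 and 3 were the high ones, and casein pool 1 lay among the high fat diet pools.

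The 21 brown and beige genes had the lowest median of any metabolic list, -0.50, with 17 negative, 1 separated upward (Zic1) and 1 downward (Dio2, which activates thyroid hormone). Ucp1, the uncoupling protein, was 1.77, 3.72 and 2.95 on casein and -0.86, 1.95 and -2.05 on the high fat diet. High fat diet pool 2 lay above casein pool 1, so the groups overlapped, and the difference of -3.13 ± 1.51 had an adjusted p of 0.67. Elovl3, a fatty acid elongase of brown fat, was 1.004, 3.06 and 2.04 on casein and -1.20, 1.12 and -1.04 on the high fat diet. Its difference was -2.41 ± 0.72 (adjusted p = 0.538), and high fat diet pool 2 again lay above casein pool 1. Cidea, a lipid droplet protein of brown cells, differed by -2.53 ± 1.01 (adjusted p = 0.639) and Ppargc1b, a coactivator of mitochondrial genes, by -0.84 ± 0.27 (adjusted p = 0.566). With muscle, liver and lymphoid medians as covariates the list's median was -0.27, and it lay between -0.73 and -0.43 without each wild type pool in turn.

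In insulin action and glucose use the list as a whole was level (median -0.01 over 29 genes), but 6 genes were separated upward and 4 downward. Those upward were all on the path from the insulin receptor through phosphoinositide 3-kinase to Akt: Irs2, Pik3r1, Pik3ca, Pik3cb, Pdpk1 and Akt2. Insr, Irs1, Irs3 and Akt1, on the same path and also measured, were not separated. Those downward were Slc2a5, the glycolytic enzymes Hk2 and Pfkl, and Grb14, which inhibits the insulin receptor. Irs2, an adaptor of the insulin receptor, was -0.35, -0.04 and -0.78 on casein and 0.24, 0.70 and 1.02 on the high fat diet (1.04 ± 0.34, adjusted p = 0.573). Slc2a5, the fructose transporter, was 0.22, 0.73 and 0.82 on casein and -0.33, -0.39 and -1.49 on the high fat diet (-1.33 ± 0.37, adjusted p = 0.537).

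Macrophage genes, chemokines and complement were mostly higher by value, most of all in high fat diet pool 3. Of 35 macrophage genes 32 had a positive difference, with a median of 0.32, 9 with an unadjusted p below 0.05 and 4 separated upward (C1qb, Clec7a, Mgl2 and Slc11a1). C1qb, a chain of the complement starter C1q that macrophages make, was -0.38, -0.21 and -0.42 on casein and -0.02, 0.26 and 0.50 on the high fat diet (0.58 ± 0.14, adjusted p = 0.517). Adgre1, a surface receptor that marks mouse macrophages, was -0.30, 0.12 and -0.18 on casein and -0.03, 0.31 and 0.74 on the high fat diet (0.46 ± 0.18, adjusted p = 0.639). Cd68, a lysosomal protein of macrophages, differed by 0.54 ± 0.27 (adjusted p = 0.677), and by 0.20 without high fat diet pool 3. Itgax, which encodes CD11c, was 1.76 in high fat diet pool 3 and between -0.22 and 0.36 elsewhere (0.68 ± 0.38, adjusted p = 0.705), and without that pool it differed by 0.13. The macrophage median was 0.13 without high fat diet pool 3 and between 0.22 and 0.42 without each of the other wild type pools.

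Genes of lipid-associated macrophages, the cells that clear lipid from dying adipocytes, had a median of 0.27 over 22 genes, with 3 separated upward (Abcg1, Cd36 and Lgals1). Abcg1, a cholesterol exporter, was -0.27, 0.04 and 0.00 on casein and 0.10, 0.63 and 0.92 on the high fat diet (0.63 ± 0.19, adjusted p = 0.538), and Lgals1, a galectin, differed by 0.36 ± 0.10 (adjusted p = 0.537). Without high fat diet pool 3 this median was 0.08. Of 34 chemokines, cytokines and their receptors 7 were separated upward and 1 downward (Cx3cl1), with a median of 0.12. Ccl11, the eosinophil attractant eotaxin, was 0.12, 0.27 and -0.55 on casein and 0.51, 0.97 and 1.50 on the high fat diet (1.05 ± 0.35, adjusted p = 0.592). Ccl2, the monocyte attractant, was 0.00, 0.14 and -0.33 on casein and 0.28, 0.18 and 1.44 on the high fat diet (0.70 ± 0.30, adjusted p = 0.652). Without high fat diet pool 3 its difference was 0.30.

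Complement and acute phase genes had a median of 0.33 over 19 genes, of which 5 were separated upward (C1qb, C1ra, C1s1, C6 and Serping1) and 0 downward, and of 0.09 without high fat diet pool 3. C6, a component of the membrane attack complex, was -0.96, -0.02 and 0.00 on casein and 0.97, 0.26 and 1.24 on the high fat diet (1.15 ± 0.30, adjusted p = 0.531). The 26 interferon-stimulated genes had a median of 0.05, and Gbp2, a guanylate-binding protein, differed by 0.38 ± 0.09 (adjusted p = 0.462). Among the 9 measured NADPH oxidase genes 0 were separated. Ncf1, which encodes p47phox itself, differed by 0.10 ± 0.16 (adjusted p = 0.89) and Cybb, the catalytic subunit, by 0.25 ± 0.18 (adjusted p = 0.76). In casein pool 3, where lymphoid genes were high, they were 0.85 and 0.51.

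The lymphoid list was lower by value, with 29 of its 31 genes negative and a median of -0.26, but 0 were separated. Without casein pool 3 its median was 0.08. Granulocyte and mast cell genes had a median of -0.03 over 21 genes, with 1 separated downward: Il5ra, the interleukin 5 receptor, at -0.20 ± 0.09 (adjusted p = 0.654).

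Vessel genes were among the most uniform. Of 26 endothelial genes 25 had a positive difference, with a median of 0.33, 7 with an unadjusted p below 0.05 and 6 separated upward. Erg, a transcription factor of endothelial identity, was -0.04, 0.17 and -0.48 on casein and 0.45, 0.67 and 0.61 on the high fat diet (0.69 ± 0.21, adjusted p = 0.538). Esam, a junction protein, differed by 0.41 ± 0.13 (adjusted p = 0.553), with high fat diet pool 1 (0.25) below casein pool 2 (0.30). The list's median lay between 0.25 and 0.41 without each wild type pool in turn.

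In the matrix, 32 of 34 collagen and other matrix genes had a positive difference, with a median of 0.18 and 4 separated upward (Postn, Dcn, Bgn and Nid1). Without high fat diet pool 3 or casein pool 3 that median was 0.09, and with the 3 tissue covariates it was 0.06. Bgn, the proteoglycan biglycan, was -0.20, -0.44 and -0.24 on casein and -0.09, -0.06 and 0.17 on the high fat diet (0.30 ± 0.09, adjusted p = 0.538). Matrix proteases and their inhibitors had a median of 0.25 over 20 genes, with Mmp3 and Timp2 separated upward and Mmp16 downward, and a median of 0.14 without casein pool 3. Mmp3, which cleaves many matrix proteins, was -1.42, -0.32 and -0.49 on casein and -0.03, 1.01 and 1.71 on the high fat diet (1.64 ± 0.43, adjusted p = 0.537). Timp2, an inhibitor of such proteases, differed by 0.33 ± 0.10 (adjusted p = 0.553). Progenitor and fibroblast markers had a median of 0.15 over 23 genes, with 3 separated upward: Pdgfra, Igf1 and Pdgfrb, a receptor of stromal cells (0.40 ± 0.15, adjusted p = 0.61). Of 29 proliferation genes 24 were negative, with a median of -0.18 and 4 separated downward (Plk1, Kif20a, Rrm1 and Mcm2). Rrm1, a subunit of ribonucleotide reductase, differed by -0.20 ± 0.07 (adjusted p = 0.605). Without casein pool 1 the proliferation median was -0.02.

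Lists for antioxidant defence, the unfolded protein response and the circadian clock had medians of 0.01, 0.03 and 0.00 over 27, 30 and 18 genes. Of the antioxidant genes 2 were separated upward and 5 downward (18.5%, against 4.86% of all genes). Of the unfolded protein and heat shock genes 5 were separated upward (16.7%, against 7.07%) and 2 downward, and of the clock genes 1 upward and 0 downward. The plot of list medians sets all of these lists beside their values without pools and with covariates.

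For pool composition, the values with and without each tissue stood as follows. The skeletal muscle list had a median difference of 0.11, which was -1.83 without high fat diet pool 2 and 0.77 without casein pool 1, and 0 of its 30 genes were separated. With the muscle median as a covariate, 218 of the 222 genes over 2-fold stayed so in the same direction. The muscle medians averaged 0.85 over the casein pools and 0.91 over the high fat diet pools. A covariate so even between the diets can move their difference little, so the 218 does not measure the part of muscle. The liver list had a median of -0.84, and of 0.86 without casein pool 3, with 0 of 25 separated. With the liver median as a covariate 151 of the 222 stayed over 2-fold, with the lymphoid median 124 and with all 3 medians together 124. The fat mass list kept a median of 0.29 with the 3 covariates, the endothelial list 0.24, the macrophage list 0.26 and the complement list 0.19. With casein pool 3 and high fat diet pool 2 left out, the pools richest in liver and muscle markers, these medians were 0.48, 0.31, 0.36 and 0.34. In that setting the skeletal muscle list had a median of -2.30 and the liver list 1.03, so it did not even out either tissue between the diets. The 3 covariates came from the same arrays and left 5 residual degrees of freedom. Adrenal and reproductive tissue, which had no covariate of their own, set casein pools 3 and 1 apart. The liver, lymphoid and adrenal medians were all highest in casein pool 3, so their shares in that pool cannot be told apart. The adrenal list's median difference of -1.38 was -0.90 with the liver covariate, -0.35 with the lymphoid covariate and -0.32 with all 3. The part of adrenal and reproductive tissue in the other differences was not tested.

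The null pools share no sample with the wild type means, but they helped to set the residual variance by which the 16 genes were chosen, so their values are a description and not an independent test. There 12 of the 16 differed in the same direction between the diets, 8 were separated the same way and 2 the opposite way, and 7 had an unadjusted p below 0.05. Among all genes the null pools were separated for 10.6% (1927), 4.89% upward and 5.7% downward, and had an unadjusted p below 0.05 for 4% (727), and 0 (0%) passed the threshold, with a smallest adjusted p of 0.163. Hsd11b1 was 0.69, 1.04 and 1.48 in the null casein pools and -1.40, -0.79 and -0.88 in the null high fat diet pools. That is a difference of -2.09 ± 0.26 (adjusted p = 0.163), beside -1.69 in wild type. Slc16a12 (0.30 ± 0.13), Pla2g2e (0.71 ± 0.27) and Pmepa1 (0.65 ± 0.29) were also separated upward in the null pools, by less than in wild type. Folh1 differed by 0.00 ± 0.24 there, and Pank1 by 0.11 ± 0.22. Tst (0.40 ± 0.22) and Rgs2 (0.45 ± 0.23) were separated the opposite way.

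The interaction, which tests whether the diet difference differs between genotypes, passed the threshold for 0 genes (0%), with a smallest adjusted p of 0.789. For the 16 genes its unadjusted p was below 0.05 in 12, against 6.12% of all genes, but they had been named for their wild type difference, so this count is not independent. Hsd11b1 had an interaction p of 0.299 before adjustment and 0.843 after it in limma. The fat mass list had a median of -0.08 in the null pools, the endothelial list -0.08 and the macrophage list -0.02, beside 0.46, 0.33 and 0.32 in wild type. Over all genes similar numbers were separated the same way in both genotypes (106) and the opposite way (96), and these counts carry no test.

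**Figure D4:**
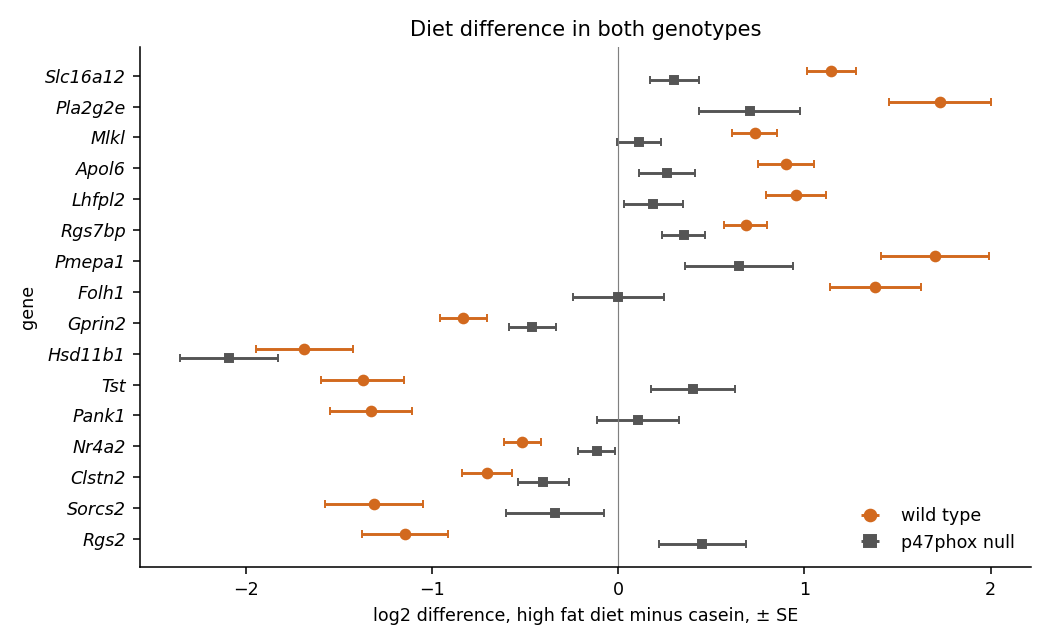
Log2 difference between high fat diet and casein (x axis, bars are ± 1 SE of the fit, 3 pools a group) of the 16 genes (y axis) in wild type (orange circles) and p47phox null pools (grey squares). Hsd11b1 is lower in both (-1.69 and -2.09), while Tst and Rgs2 lie on opposite sides of 0; no interaction passed the threshold.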

How the data were processed

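RNA from pools of fat pads (8 µg of total RNA each) was labelled with biotin and hybridised to 12 Affymetrix arrays, per the labels' protocols. GCOS and RMA were used, per the submitters' processing notes, with no version. The deposited values are log2 values, with the base taken from RMA, and the authors had centred every probe set on its median over the 12 arrays (0 of 45101 depart by more than 1e-06), so levels, depth and background are lost.

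Of the probe sets, 34958 carry 1 gene, 932 several and 9211 none in the platform annotation. A gene was the mean of its probe sets with 1 gene; symbols came from RefSeq (GRCm38.p6), which held 34754 of the 34958. One limma fit (version 3.58.1, R 4.3.3) of the 4 group means with lmFit, contrasts.fit and eBayes gave the tests, with 8 residual and 2.5 prior degrees of freedom, two-sided, with Benjamini-Hochberg adjustment over 18195 genes and a threshold of 0.05. The fit was tested on simulated data. Errors after ± are SEs of the fit.

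The members and lists were chosen with earlier results of these data known. Of 913 entries in 37 lists, 830 matched. Lists were described by counts and medians, with no set test. Named were genes past the threshold, or else the 8 separated genes with the smallest p in each direction, without predicted genes; in each list the 2 members with the smallest p; and 15 genes followed whatever their values. Others named were chosen after their values were seen. The 28 alternatives changed the samples, the probe set summary, the normalization, the gene filter, the weights, the replicate block and tissue covariates.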

Additional observations from a re-analysis of the deposited data

Results flagged for a closer look

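Among the 10143 probe sets that carry no gene or several genes in the annotation, and which the comparisons above leave out, 1 passed the threshold. Probe set 1457743_at was 0.12, 0.32 and -0.27 in wild type casein pools 1 to 3 and 1.08, 1.19 and 1.05 in high fat diet pools 1 to 3. The difference was 1.0456 ± 0.13, with an adjusted p of 0.0457 in limma over the 10143 probe sets. Over all 45101 probe sets its adjusted p was 0.12 and 0 passed. In the null pools it differed by 0.59 ± 0.13. It has no single gene name here.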

How the results depend on the processing

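The count of genes past the threshold, 0 with all pools, was 1 with the muscle median as covariate and 1 without casein pool 3 and high fat diet pool 2, Pla2g2e in both, and ran from 0 to 15 when 1 pool was left out. The 15 came without wild type casein pool 2, where 14 genes were lower, among them the steroid synthesis genes Cyp11a1 (-2.27), Fdx1 (-1.85) and Hsd3b1 (-8.21), and Slc16a12 was higher (1.17, adjusted p = 0.0409). It was 2 without high fat diet pool 1 and 1 without high fat diet pool 2. The count with an unadjusted p below 0.05, 1384, was 795 among the 9098 genes with a wide span, 669 without casein pool 3 and high fat diet pool 3 (an alternative chosen after seeing the data), and 896 to 1902 with 1 pool left out, lowest without high fat diet pool 3. The count over 2-fold, 222, was 134 after quantile normalization and 196 to 435 with 1 pool left out. With the pool number as a replicate block 0 genes passed and 1384 had an unadjusted p below 0.05, of which 1151 were the same genes. The numbers share nothing else in the labels, and deviations of same-numbered casein and high fat diet pools correlated at -0.11, -0.14 and 0.30. The sign turned for Adipoq (-0.032 with 3 covariates, -0.014 without casein pool 3 and high fat diet pool 3), for Ncf1 (-0.015 by the probe set with the widest span, -0.062 without casein pool 1 and high fat diet pool 2, and from -0.078 without casein pool 1 to 0.311 without casein pool 3), for Slc4a1 (0.016 with 3 covariates, 0.024 without casein pool 3 and high fat diet pool 3), for Tnni1 (-0.35 without casein pool 3 and high fat diet pool 2, and from -0.103 without high fat diet pool 2 to 1.90 without pool 3) and for Mybpc1 (-0.56, and from -0.368 to 1.96 likewise). In all of these neither sign passed the threshold, and the cause was not tested. Array weights stopped before full convergence. Centred values carry no signal over background, so probes near background could not be filtered.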

Other observations

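Some of the largest values of single pools were in genes outside every list, named here after their values were seen. Ubd, a ubiquitin-like protein induced by inflammation, was -0.54, -0.79 and 0.17 on casein and 0.33, 1.96 and 4.24 on the high fat diet, a difference of 2.56 ± 0.73 with an adjusted p of 0.538 in limma. Tph2, a tryptophan hydroxylase, was between -0.07 and 0.08 on casein and 0.50, 1.74 and 4.80 on the high fat diet, a difference of 2.33 ± 0.79 (adjusted p = 0.595). For both, high fat diet pool 3 was highest and pool 1 lowest of the high fat diet pools. Mgarp, a mitochondrial protein of steroid-making cells, was -0.06, -4.76 and 0.52 on casein and -4.79, -5.65 and -5.55 on the high fat diet. Its pools were separated by a narrow margin, with casein pool 2 close to the high fat diet pools.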
